A study of Lactuca sativa with 20 samples.

Results

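The genes described here rose in lettuce seedlings given abscisic acid (ABA) and stayed near the control level with 2 other treatments, the ethylene precursor ACC and the peptide CLE12p. They were chosen from measured values. For each gene the count per 1000000 counts of its library (CPM) was averaged within a group, 1 was added and the log2 taken. A gene was a member if its mean over all 20 libraries was at least 1 CPM, if ABA lay at least 1 above the 5 control libraries on that scale, if every ABA library lay above every control library, and if ACC and CLE12p each lay within 0.4 of the controls. This gave 133 genes of the 37828 gene models in the table, and of 20479 with a mean of at least 1 CPM. The ABA part of the rule alone was met by 235 genes, so 102 were set aside because their mean in ACC, in CLE12p or in both lay 0.4 or more from the controls.

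The material was whole seedlings of *Lactuca sativa*, variety Little Gem, which were 4 days old and had grown on MS medium in continuous light at 22 °C. They were held for 2 h in water (3 libraries), in 0.02% ethanol (2), in 10 µM of ABA, ACC or CLE12p (3 each), or in 10 µM CLE12p together with 10 µM ABA (3) or with 10 µM ACC (3). Water and ethanol were the 5 controls. The protocol text gives ABA and ACC for the last mixture, whereas its 3 libraries are labelled as CLE12p and ACC. The grouping here follows the labels. The members stayed near the control level in those libraries (values below). The labels do not say whether the ABA solutions held ethanol, or whether replicates came from separate batches of seedlings, so the p-values measure only the spread between libraries, which may be technical.

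ABA is the plant hormone of drought, salt stress and seed dormancy. Cells perceive it with soluble receptors of the PYR/PYL family, which on binding ABA block a class of protein phosphatases. The kinases that those phosphatases hold back then become active, and they phosphorylate bZIP transcription factors that bind ABA-responsive elements in promoters. In leaves the hormone is known for closing stomata and for promoting senescence, and ethylene, which plants make from ACC, is known to promote senescence as well. CLE peptides are short secreted signals that bind receptor kinases at the cell surface, and the study's title links the lettuce peptide to a delay of senescence.

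None of the table's 37828 gene identifiers could be matched to the reference gene table used here (0 matches to 51651 genes), and the count table gives no names. Gene functions, sequences and positions are therefore not given, and members are called by identifier. The ABA pathway genes could not be picked out as a list for the same reason, and the tissue label could not be checked against marker genes. Levels are not corrected for gene length, so CPM values are compared within a gene only. In RNA from whole seedlings, a change in the number of cells of a type and a change in RNA per cell cannot be told apart.

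Library totals lay between 18614220 and 27101622 counts. The members together took 1229 to 1394 CPM in the control libraries, 3469 to 3856 CPM in ABA and 3301 to 3526 CPM in CLE12p with ABA. They took 1249 to 1302 CPM in ACC, 1304 to 1382 CPM in CLE12p and 1177 to 1209 CPM in CLE12p with ACC. The values in ABA, ACC, CLE12p and the controls follow from the choice of members. Those in the 2 combinations do not, apart from their part in the mean over all libraries.

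**Figure D1:**
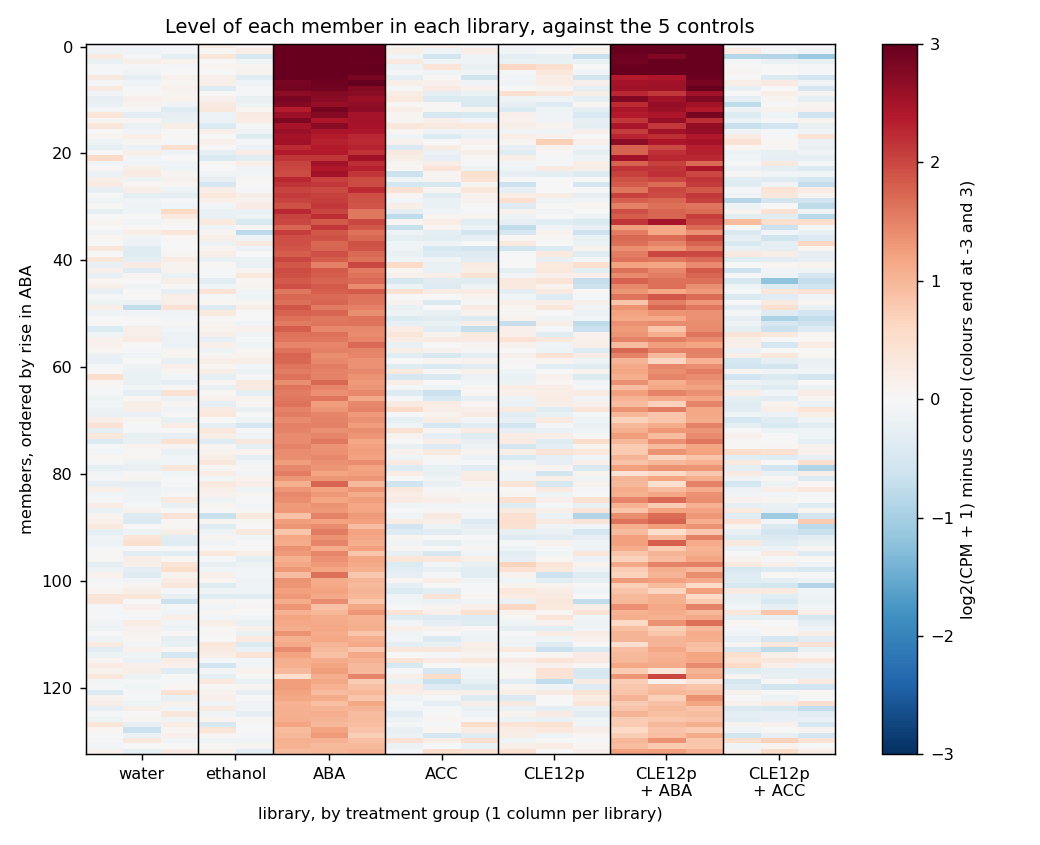
Level of the 133 members (rows, ordered by their rise in ABA) in the 20 libraries (columns, by treatment), as log2(CPM + 1) minus the level of the 5 controls. The 3 ABA columns are red because the rule required it, the 3 columns of CLE12p with ABA are red as well, and the 3 columns of CLE12p with ACC are mostly pale.

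The rise in ABA that chose the members had a median of 1.46 on the log2(CPM + 1) scale, with quartiles of 1.18 and 1.94 and a highest value of 4.48. This scale understates the change of genes with low counts. Between 1 and 1.5 there were 72 members, between 1.5 and 2 there were 31, between 2 and 3 there were 24, and 6 lay above 3. ACC minus control had a median of -0.04 in the members and CLE12p minus control of -0.01, both held within 0.4 by the rule. Mean levels in the controls ran from 0.0620 to 215 CPM with a median of 3.10 CPM, and 7 members had under 20 counts over the 5 control libraries together. The genes at the edges of the rule were close on both sides. The smallest rise that counted was 1.00 (Lsat_1_v5_gn_2_22321), and the largest that did not was 0.99 (Lsat_1_v5_gn_8_114261). For ACC the nearest values were -0.39 inside (Lsat_1_v5_gn_2_109001) and -0.40 outside (Lsat_1_v5_gn_5_173681), and for CLE12p they were 0.40 inside (Lsat_1_v5_gn_4_15881) and -0.41 outside (Lsat_1_v5_gn_4_42560). For the mean over all libraries they were 1.11 CPM (Lsat_1_v5_gn_9_64201) and 0.998 CPM (Lsat_1_v5_gn_4_32020). No gene failed only on the separation of ABA from the controls, where the narrowest member was Lsat_1_v5_gn_6_107221.

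The 2 members with the highest rise were nearly silent without ABA. Lsat_1_v5_gn_2_78000 stood at 24.7, 24.0 and 19.7 CPM in the 3 ABA libraries, with 7 counts in all in the 5 controls (0 to 0.194 CPM). In CLE12p with ABA it stood at 18.5, 17.9 and 20.9 CPM. It reached at most 0.184 CPM in any library of ACC, CLE12p or CLE12p with ACC. Every library with ABA thus lay far above every library without it.

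Lsat_1_v5_gn_2_133640 stood at 17.3, 18.7 and 14.3 CPM in ABA and at 13.3, 12.9 and 17.2 CPM in CLE12p with ABA. In the controls it had 19 counts in all and lay between 0.0928 and 0.341 CPM, and its highest value in ACC, CLE12p and CLE12p with ACC was 0.368 CPM. The 4 other members with a rise above 3 were Lsat_1_v5_gn_9_24061, Lsat_1_v5_gn_9_35501, Lsat_1_v5_gn_7_40440 and Lsat_1_v5_gn_8_131100, named after their values were seen. Of these, Lsat_1_v5_gn_9_24061 was clearly present without ABA, at 2.52 to 5.28 CPM in the controls, and rose to between 46.8 and 56.1 CPM in ABA.

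The 2 members with the most reads had modest rises. Lsat_1_v5_gn_2_45920 stood at 194 to 262 CPM in the 5 controls and at 566, 492 and 511 CPM in ABA. It was highest in CLE12p with ABA, at 599, 702 and 564 CPM, and stood at 235, 226 and 217 CPM in CLE12p with ACC. Lsat_1_v5_gn_2_108920 stood at 62.8 to 98.2 CPM in the controls, at 209, 194 and 180 CPM in ABA and at 182, 196 and 195 CPM in CLE12p with ABA. In CLE12p with ACC it lay lower, at 63.8, 51.7 and 40.9 CPM. Both genes separated all libraries with ABA from all libraries without it.

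**Figure D2:**
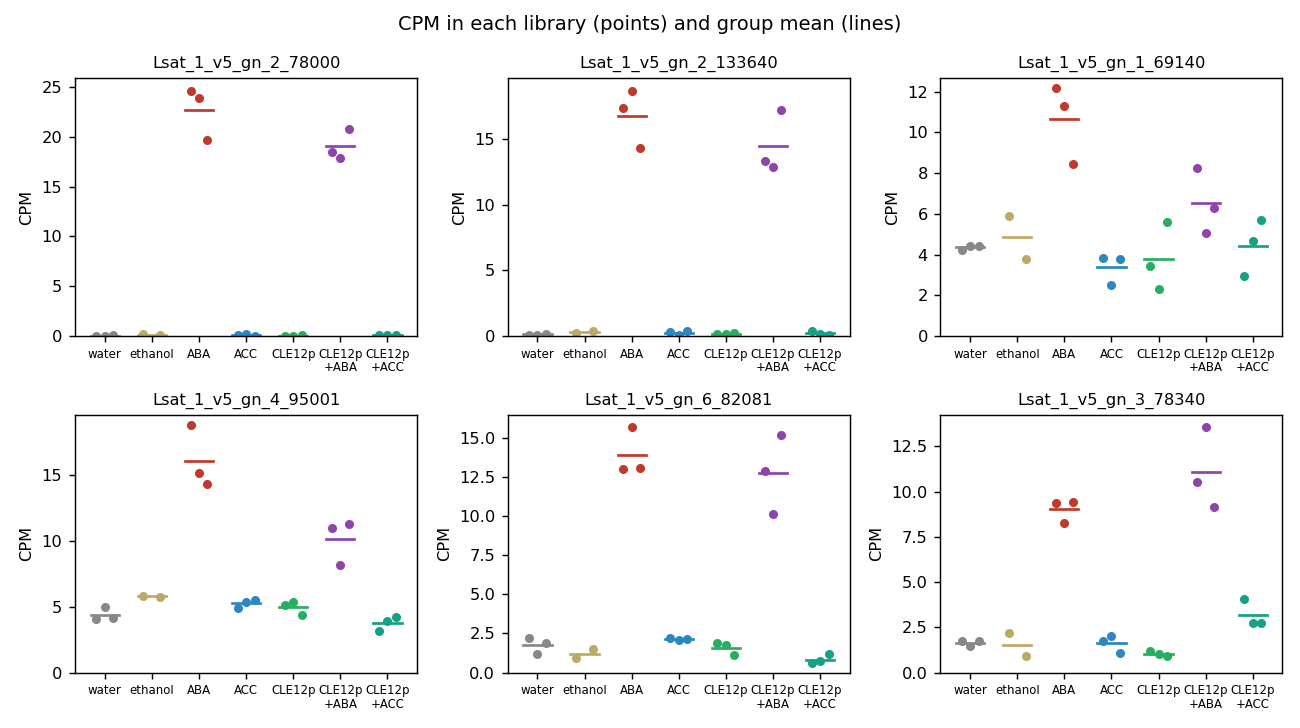
CPM of 6 members in each library (points) with the group mean (lines), each panel from 0 on its own scale. The upper row shows the pair with the highest rise and Lsat_1_v5_gn_1_69140, the member with the smallest difference between CLE12p with ABA and CLE12p with ACC. The lower row shows Lsat_1_v5_gn_4_95001, called between CLE12p with ABA and ABA. It also shows Lsat_1_v5_gn_6_82081 and Lsat_1_v5_gn_3_78340, called between CLE12p with ACC and ACC.

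Whether the members differed between ABA and ACC beside the peptide was tested with CLE12p with ABA against CLE12p with ACC. The rule used this pair of groups only for the mean over all libraries. High levels in CLE12p with ABA can help a gene with few counts past the limit of 1 CPM on that mean. Lsat_1_v5_gn_2_81461, Lsat_1_v5_gn_2_126821 and Lsat_1_v5_gn_1_28580, named after their values were seen, passed the limit only with their levels in CLE12p with ABA. The first stood at a mean of 4.82 CPM in CLE12p with ABA, 5.02 CPM in ABA and at most 0.0968 CPM in any other group. For such members the choice bears on the test, and the counts and the median below include them. How many others passed in this way was not counted. A level below the controls in CLE12p with ACC adds to the difference. All 133 members were higher in CLE12p with ABA, and 129 passed the test in edgeR (quasi-likelihood test, Benjamini-Hochberg adjusted p below 0.05 over 23413 genes). This is 97.0% of the members, while 10.4% of all genes tested were called higher in this comparison. The median log2 fold change of the members was 1.73, against -0.0031 over all genes tested. In 132 of the 133 members every library of CLE12p with ABA lay above every library of CLE12p with ACC, as it did in 18.9% of all genes tested. edgeR called 0 members lower, as did DESeq2, and 0 were lower at an unadjusted p below 0.05, whereas 11.7% of all genes tested were called lower in edgeR and 14.4% were lower in every library. In either direction 22.2% of all genes tested were called. Without any 1 of the 6 libraries, 128 or 129 members were called. On the log2(CPM + 1) scale, CLE12p with ABA lay a median of 1.42 above CLE12p with ACC, and at least 1 above it in 111 members. Above CLE12p alone, which the rule held near the controls, it lay by a median of 1.25, and by at least 1 in 100 members. This last difference was not tested.

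The 2 highest log2 fold changes from edgeR in this comparison rested on very few reads in CLE12p with ACC. Lsat_1_v5_gn_2_78000 had 1275 counts in CLE12p with ABA and 3 in CLE12p with ACC, a ratio of 429 (95% exact binomial interval 146 to 2081, counting error only; edgeR adjusted p = 7.57e-13). Lsat_1_v5_gn_9_35501 had 606 and 2 counts, a ratio of 306 (84.2 to 2529; adjusted p = 1.49e-08). This gene stood at 7.44, 10.5 and 9.35 CPM in CLE12p with ABA, close to its 11.9, 12.9 and 7.88 CPM in ABA. Its 2 counts in CLE12p with ACC were in 1 library, and it had 0 counts in all 3 libraries of CLE12p. By the ratio of counts, Lsat_1_v5_gn_2_81461 lay between these 2 genes, at 323 (57.5 to 12788). It had 320 counts against 1.

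The 4 members that did not pass were named after their values were seen, except the 2 lowest. Lsat_1_v5_gn_1_69140 had the smallest fold change, 0.51 ± 0.28 (SE; edgeR adjusted p = 0.225). It stood at 8.26, 5.08 and 6.28 CPM in CLE12p with ABA and at 2.94, 4.67 and 5.68 CPM in CLE12p with ACC, so the groups overlapped. In ABA it had stood at 12.2, 11.3 and 8.45 CPM, above all of these. The second lowest, Lsat_1_v5_gn_6_2121, had a fold change of 0.64 ± 0.26 (adjusted p = 0.0838), with 3.76, 5.77 and 5.32 CPM against 2.44, 3.24 and 3.49 CPM. Lsat_1_v5_gn_3_107800 (0.71 ± 0.28; adjusted p = 0.0724) and Lsat_1_v5_gn_8_43101 (0.75 ± 0.27; adjusted p = 0.0529) had no overlap between the groups. All 4 had risen by less than 1.5 in ABA.

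The differences within the 2 independent pairs of groups were similar in size. ABA against the controls and CLE12p with ABA against CLE12p with ACC share no library, and across the 133 members their differences on the log2(CPM + 1) scale had a Pearson r of 0.90 and a Spearman rho of 0.79. Genes are not independent replicates, and low counts limit both differences on this scale. Members with a rise of 1 to 1.5 in ABA had a median difference of 1.22 between the combinations, those with 1.5 to 2 had 1.63, those with 2 to 3 had 2.44 and those above 3 had 3.49. The corresponding medians of the rise in ABA were 1.20, 1.75, 2.37 and 3.41. CLE12p with ABA minus the controls had lower medians, at 1.06, 1.49, 2.32 and 3.18. CLE12p with ACC minus the controls had medians of -0.08, -0.21, -0.12 and -0.01. Levels below the controls in CLE12p with ACC thus added to the differences between the combinations. The similar sizes therefore do not show an equal rise with ABA beside the peptide.

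**Figure D3:**
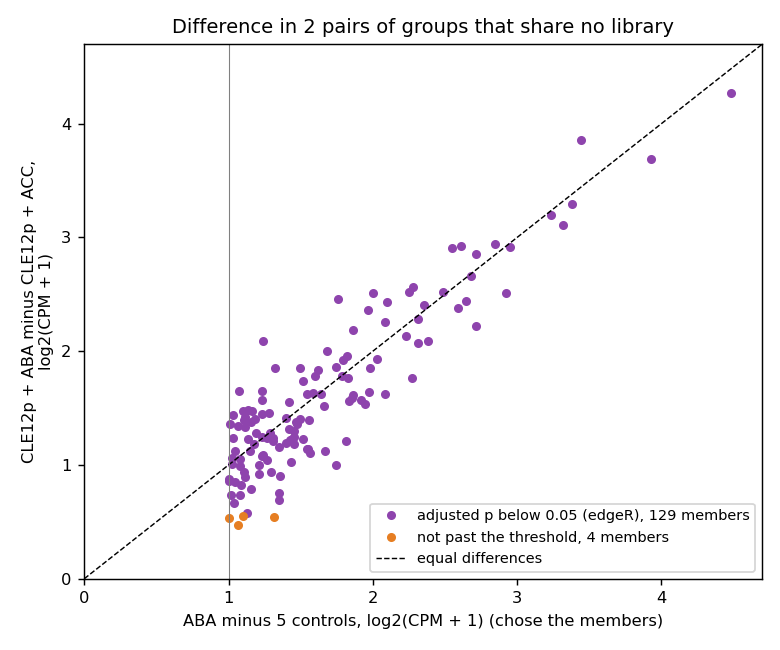
Each point is 1 of the 133 members. The x axis is ABA minus the 5 controls, which chose the members (grey line at 1), the y axis is CLE12p with ABA minus CLE12p with ACC, both in log2(CPM + 1), and the 4 orange points are the members that did not pass the edgeR test on the y axis; the points lie along the dashed line of equal differences (r = 0.90).

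The groups that held ABA stood at the top in every member. ABA and CLE12p with ABA were the 2 highest group means in all 133, with ABA highest in 110 and CLE12p with ABA in 23. The rule fixes the rank of ABA above the controls, ACC and CLE12p, but not the ranks of the 2 combinations. The ABA libraries had chosen the members as high, which by itself favours ABA over CLE12p with ABA. How many of all genes show these ranks was not counted, and the ranks were not tested. In 130 members (97.7%) all 6 libraries that held ABA lay above all 14 that did not, compared with 3.66% of the 20479 genes with a mean of at least 1 CPM; the rule itself fixes part of this. The exceptions, named after their values were seen, were Lsat_1_v5_gn_1_69140, Lsat_1_v5_gn_6_107221 and Lsat_1_v5_gn_8_120121. In Lsat_1_v5_gn_6_107221 the ABA libraries were far apart, at 3.20, 5.25 and 7.07 CPM, and the lowest was below the 3.32 CPM of 1 ACC library. In Lsat_1_v5_gn_8_120121 the lowest library of CLE12p with ABA, at 2.93 CPM, was below the 3.13 CPM of 1 CLE12p library.

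Single ABA libraries were also high when they took no part in the choice, which the other ABA libraries and the controls still made. With the rule applied without ABA replicate 1, 129 genes were chosen, and the left-out library lay above every control library in 128 of them. Without replicate 2 this held for 131 of 132 genes and without replicate 3 for 138 of 138. Over all genes chosen, the left-out library minus the control level had a median of 1.54, 1.47 and 1.33 on the log2(CPM + 1) scale. The controls are the same libraries that chose the genes as low, so part of this follows from the rule. The share of all genes with the left-out library above every control was not counted. These choices were made after the data were seen, and they shared 121, 124 and 129 genes with the members.

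**Figure D4:**
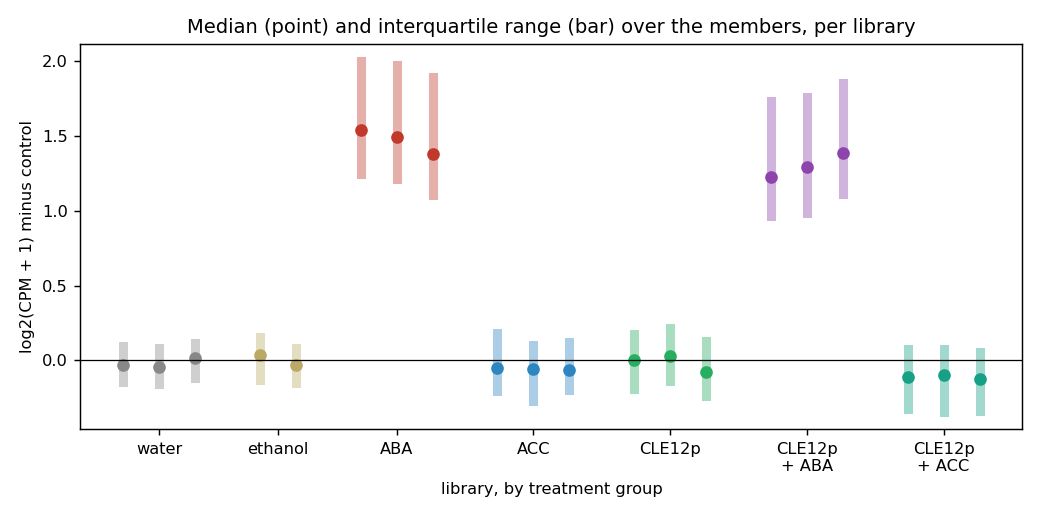
Median (points) and interquartile range (bars) over the 133 members in each library, as log2(CPM + 1) minus the 5 controls. ABA libraries lie at 1.38 to 1.54 and those of CLE12p with ABA at 1.23 to 1.39, whereas all other libraries lie between -0.13 and 0.03.

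Adding the peptide to ABA left the members high. Against ABA alone, edgeR called 0 members higher (1 at an unadjusted p below 0.05) and 3 lower, or 2.26%, whereas 2.65% of all genes tested were called higher and 1.28% lower. DESeq2 called 0 higher and 7 lower. In either direction edgeR called 3.93% of all genes tested. Every library of CLE12p with ABA lay below every ABA library in 32 members and above in 0, compared with 12.5% and 12% of all genes tested. The ABA libraries had chosen the members as high, which by itself can put CLE12p with ABA below ABA. The median log2 fold change was -0.21 in the members and 4.88e-06 over all genes tested, and 110 of the 133 members were lower in CLE12p with ABA on the log2(CPM + 1) scale. The library medians overlapped, since CLE12p with ABA replicate 3 (1.39) lay above ABA replicate 3 (1.38).

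The size of that shift depended on which ABA library was compared. On the log2(CPM + 1) scale CLE12p with ABA minus ABA had a median of -0.19 over the members. With genes chosen without the ABA library that was then compared, the median was -0.20 for replicate 1 (lower in 107 of 129 genes), -0.18 for replicate 2 (106 of 132) and -0.06 for replicate 3 (82 of 138). With CLE12p with ABA in place of ABA in the rule, which favours the opposite direction, 118 genes were chosen, 101 of them members, and the median was -0.09 with 78 of 118 lower. All 4 values lay below 0, where the median over genes with a mean of at least 1 CPM was -0.0021. They are not separate checks, since the sets share most of their genes and all use the same libraries of CLE12p with ABA. No test was made of them, and no conclusion on a lower level is drawn from them.

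The 3 members called lower beside ABA differed from ABA alone by less than 1 on the log2 scale. They were 2.26% of the members, where 1.28% of all genes tested were called lower and 3.93% in either direction. Lsat_1_v5_gn_4_95001 stood at 18.8, 15.1 and 14.4 CPM in ABA and at 11.0, 8.19 and 11.3 CPM in CLE12p with ABA, with no overlap. Its log2 fold change was -0.66 ± 0.15 (SE; edgeR adjusted p = 0.0132). It remained above its 5 control libraries, which lay between 4.08 and 5.86 CPM.

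Lsat_1_v5_gn_8_14780 stood at 19.5, 20.2 and 16.9 CPM in ABA and at 14.9, 11.4 and 13.0 CPM in CLE12p with ABA (-0.52 ± 0.14; adjusted p = 0.0409). Lsat_1_v5_gn_8_14760 stood at 55.3, 52.7 and 46.4 CPM and at 38.0, 33.4 and 42.6 CPM (-0.44 ± 0.12; adjusted p = 0.0423). The identifiers of these 2 genes follow each other in the numbering of the table, and whether their counts share reads cannot be told. All 3 calls were lost without ABA replicate 1 or without CLE12p with ABA replicate 2, and 1 call remained without ABA replicate 2 or 3. The call of Lsat_1_v5_gn_8_14780 was also lost without CLE12p with ABA replicate 3 (edgeR adjusted p = 0.101), at a log2 fold change of -0.50, and that of Lsat_1_v5_gn_8_14760 without CLE12p with ABA replicate 1. Over all 11 alternatives the fold change of Lsat_1_v5_gn_8_14780 lay between -0.64 and -0.43, with adjusted p from 0.0167 to 0.228.

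Between CLE12p with ACC and ACC, where no ABA was given, a few members were called in both directions. The share called higher lay below that of all genes and the share called lower lay above it. Neither difference in shares was tested. edgeR called 3 members higher (2.26%) and 7 lower (5.26%), whereas 3.26% of all genes tested were called higher and 1.73% lower, 4.98% in either direction. The libraries of CLE12p with ACC lay above all those of ACC in 4 members and below in 28, compared with 10.2% and 11.9% of all genes tested. The median log2 fold change was -0.12, against 0.0017 over all genes tested. The ACC libraries took part in the choice as near the controls. Only 5 members were called without ACC replicate 2 or 3, without CLE12p with ACC replicate 2, or with only the libraries compared in the fit, and 4 without CLE12p with ACC replicate 3.

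Among the 7 members called lower, Lsat_1_v5_gn_6_82081 stood at 2.23, 2.07 and 2.14 CPM in ACC. In CLE12p with ACC it stood at 0.598, 0.715 and 1.18 CPM, a log2 fold change of -1.32 ± 0.28 (SE, edgeR adjusted p = 0.00671). Its controls lay between 0.920 and 2.23 CPM and so overlapped both groups. Lsat_1_v5_gn_9_24061, one of the strongest risers in ABA, stood at 3.63, 2.32 and 3.46 CPM in ACC and fell to 1.70, 1.67 and 1.26 CPM (-1.0 ± 0.26; adjusted p = 0.0237). These 3 libraries lay below all 5 controls of the gene.

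Of the 3 members called higher, Lsat_1_v5_gn_3_78340 stood at 1.73, 2.03 and 1.09 CPM in ACC. In CLE12p with ACC it stood at 4.05, 2.72 and 2.76 CPM (0.99 ± 0.27, edgeR adjusted p = 0.0338). In CLE12p alone it was low, at 1.18, 1.01 and 0.921 CPM, and in CLE12p with ABA it was at 10.5, 13.6 and 9.17 CPM. Lsat_1_v5_gn_9_31601 stood at 17.0, 15.2 and 17.5 CPM in ACC and at 24.6, 27.3 and 22.3 CPM in CLE12p with ACC (0.60 ± 0.13; adjusted p = 0.00678), while its controls lay between 19.0 and 23.0 CPM. The third, Lsat_1_v5_gn_1_28480 (0.56 ± 0.15; adjusted p = 0.0271), was named after its value was seen. The calls of Lsat_1_v5_gn_3_78340 and Lsat_1_v5_gn_9_24061 were each lost without ACC replicate 1 or 3 or CLE12p with ACC replicate 3, the former also without CLE12p with ACC replicate 1 and the latter without CLE12p with ACC replicate 2. The call of Lsat_1_v5_gn_3_78340 was also lost with only the libraries compared in the fit (edgeR adjusted p = 0.0747). That of Lsat_1_v5_gn_9_31601 was lost without ACC replicate 2 (adjusted p = 0.0509).

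**Figure D5:**
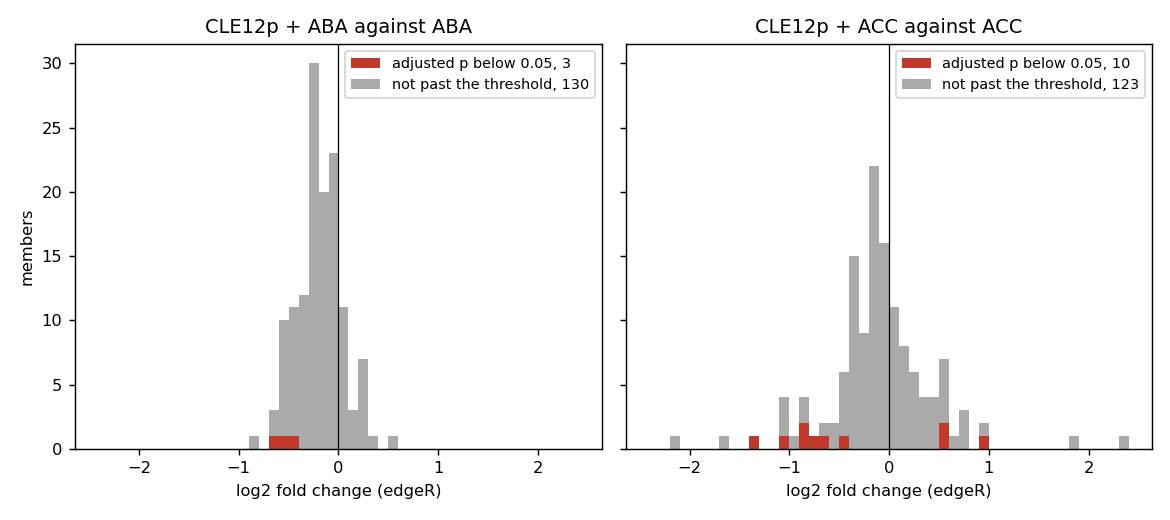
Number of members (y axis) by log2 fold change from edgeR (x axis) for CLE12p with ABA against ABA and for CLE12p with ACC against ACC, with called members in red. The left distribution lies mostly below 0 with 3 calls, all lower, and the right one holds 3 higher and 7 lower calls.

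In CLE12p with ACC, a group the limits did not use, most members lay within the 0.4 that the rule required of ACC and CLE12p alone. There 110 of 133 members lay within 0.4, 19 (14.3%) lay lower and 4 (3.01%) lay higher. Of 17247 other genes that met the limits for ACC and CLE12p, 5.55% lay lower and 2.51% higher. The difference between these shares was not tested. In every group the members varied more between libraries than genes with a mean of at least 1 CPM. In CLE12p with ACC the median SD was 0.178 in the members against 0.134, and in water 0.165 against 0.122. The part of this spread in the shares was not tested. The 4 members that lay higher, named after their values were seen, were Lsat_1_v5_gn_3_78340 (0.68), Lsat_1_v5_gn_8_43101 (0.54), Lsat_1_v5_gn_4_113140 (0.48) and Lsat_1_v5_gn_1_66321 (0.43). The lowest member was Lsat_1_v5_gn_9_24061, at -0.94.

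The 2 controls, pooled by the rule, did not differ past the threshold in any member. edgeR called 0 of 133 members and 0% of all genes tested, and DESeq2 called 0 members. At an unadjusted p below 0.05, 10 members were higher in ethanol and 6 lower, compared with 589 and 662 of the 23413 genes tested. Ethanol lay above water in every library in 19 members and below in 14, compared with 9.96% and 11.1% of all genes tested. With ethanol as the only control the rule chose 132 genes, of which 108 were members, and with water as the only control 133, of which 114 were members.

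The 102 genes that met the ABA part of the rule but not the limits for ACC and CLE12p give a comparison. Of them, 48 lay at least 0.4 above the controls in ACC and 29 at least 0.4 below, while 37 lay above and 15 below with CLE12p. Their rise in ABA had a median of 1.33, close to the 1.46 of the members. Between CLE12p with ABA and CLE12p with ACC, 79 of the 102 (77.5%) were called higher and 2 lower, with a median log2 fold change of 1.35. None of these distances was tested. Because the genes were set apart by their levels in ACC or CLE12p, and both agents are in the libraries compared, the choice itself bears on the difference from the members. Against ABA alone, CLE12p with ABA had a median log2 fold change of 0.03 in them, compared with -0.21 in the members, with 2 called higher and 8 lower. The difference between the 2 sets was not tested.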

How the data were processed

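The authors deposited raw counts for each gene model, as whole numbers, with a separate column for each library. Per the submitters' processing notes, reads were handled with STAR 2.7.10a. How reads were counted, whether by strand, and on which build and annotation, is not given in the sources used here, so genes that overlap or have close copies may share counts. There were 0 unused count columns. Replicate libraries were compared in 19 pairs over genes with at least 10 counts in the pair. Chi-square over its degrees of freedom lay between 3.54 and 23.8, above counting noise in each pair, so no library was treated as a duplicate.

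CPM was the count over the column total, times 1000000. The choice of members used log2 of the group mean CPM plus 1. Tests of the counts used edgeR 4.0.16 (R 4.3.3). filterByExpr with a minimum of 10 counts left 23413 genes, including all 133 members. TMM factors ran from 0.961 to 1.03, and 1 quasi-likelihood fit of 7 group means held all 20 libraries (common biological coefficient of variation 0.117). Tests were two-sided, with Benjamini-Hochberg adjustment over all genes tested. The standard error of a log2 fold change is its absolute size over the root of F. The edgeR step was also run on simulated data with the same spread for every gene, and its outcome is not used here. Changes were placed only in genes with higher counts, so members with few counts were not covered. Alternatives were DESeq2 1.42.0, its size factors in edgeR, no filter, a fit of the compared libraries alone, a replicate block and leaving out each library.

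The members and lists were chosen with earlier results of these data known. Named members are, in each comparison, at most the 2 with the highest and the 2 with the lowest log2 fold change (among called, non-overlapping members beside ABA and ACC, all if at most 4), the 2 with the highest rise and the 2 with the highest CPM in ABA, and the genes next to each threshold. Exceptions are named as such.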

Additional observations from a re-analysis of the deposited data

How the results depend on the processing

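The calls between CLE12p with ABA and CLE12p with ACC moved little, with 128 to 130 members called higher and 0 lower under 11 alternatives, and a median log2 fold change from 1.67 to 1.78. Calls beside ABA and ACC depended on the setting. Against ABA, the count of 3 became 7 in DESeq2 and 10 with only the libraries compared, and lay between 0 and 3 without single libraries. For CLE12p with ACC against ACC, 10 became 5 with only the libraries compared and 4 to 8 without single libraries. Ethanol against water gave 0 throughout. The number of members was 224 with a rise of at least 0.8, 61 with at least 1.5 and 75 with a floor of 5 CPM, and 129 to 138 without single libraries, of which at least 121 were members. The cause of these changes was not tested.

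Same-numbered libraries did not deviate together (correlations from -0.11 to 0.02), so the numbers were not taken to pair them. With a replicate block, 130, 2 and 9 members were called in the first 3 comparisons, and Lsat_1_v5_gn_8_14780 lost its call beside ABA (edgeR adjusted p = 0.0583, log2 fold change -0.53). Of the 6 libraries in each of these, 0, 2 and 0 correlated best with the library of their own number. In members with few counts, depth limits the size of a fold change.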

Other observations

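The members were spread over the numbered blocks of the identifiers, the first number after the prefix. Block 8 held 26 of the 133 members (19.5%), against 13.1% of the genes with a mean of at least 1 CPM, and block 5 held 9 (6.77%), against 13.8%. Block 0 held 0 members and 169 of those genes. What the blocks stand for is not stated in the files, and these shares were not tested.

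In 3 cases, 2 members followed each other directly in the numbering. Lsat_1_v5_gn_8_14760 and Lsat_1_v5_gn_8_14780 had rises in ABA of 1.43 and 1.35, and both were called lower with the peptide beside ABA. Lsat_1_v5_gn_4_63321 and Lsat_1_v5_gn_4_63420 had rises of 1.64 and 1.03, and Lsat_1_v5_gn_9_37360 and Lsat_1_v5_gn_9_37380 had rises of 1.11 and 1.40.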
